A study of Ambystoma mexicanum with 18 samples.

Results

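Guidance genes code for the surface and secreted proteins by which neighbouring cells repel, attract or sort from each other, and the question put to them was how they stood in distal blastema cells made to express Tig1, a cell surface protein of proximal cells. Members were the gene models whose symbol named an Eph receptor, ephrin, semaphorin, plexin, neuropilin, slit, robo, netrin or UNC5 receptor and which reached at least 0.5 CPM (counts scaled to library size) in at least 3 libraries. This held for 61 of the 82 gene models with such a symbol, out of 25377 genes tested. Among them were 10 Eph receptors, 6 ephrins, 19 semaphorins, 10 plexins, 2 neuropilins, 3 slits, 4 robos, 4 netrins and 3 UNC5 receptors.

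The cells came from forelimb blastemas of axolotls (Ambystoma mexicanum) of the Hoxa13:mCherry line, a heterozygous knock-in in which the reporter marks the Hoxa13-expressing, distal domain. The distal domain of late bud blastemas was electroporated with Tig1-T2a-GFP or with Tig1P155A-T2a-GFP, which carries a mutation in the latexin domain, and cells were sorted 3 or 8 days post electroporation (dpe). Tig1 cells and Tig1P155A cells were positive for mCherry and GFP, and control cells were positive for mCherry alone, taken from the electroporated blastemas. All groups thus shared the reporter allele, the amputation and the electroporation, and no cells that received GFP alone are among the libraries. Each of the 6 groups (control, Tig1 and Tig1P155A at 3 and at 8 dpe) had 3 SMARTseq2 libraries of 300 cells each. For each condition 12 blastemas were pooled and their epidermis was removed, and the p-values measure the spread between the libraries of a group, which the methods of the study call biological replicates without giving the pool each came from. The age of the animals was not given in the sources used here.

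Eph receptors and ephrins both sit in the membrane, so their signalling needs contact between cells, and in vertebrate embryos it keeps populations apart at boundaries and sorts mixed cells. Semaphorins act through plexins, with neuropilins as co-receptors for the secreted class 3. Slits act through robos, and netrins through DCC, neogenin and the UNC5 receptors. In the chick limb bud, EphA receptors and A-type ephrins have been tied to the position-dependent affinity of mesenchymal cells.

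Total counts lay between 9732514 and 23086124 per library, and the members together held 9318 to 56453 counts. Mitochondrial genes took 23.6% to 45.3% of the counts in control and 18.4% to 65.4% in overexpressing libraries. The scaling factors of edgeR (TMM) were 1.09 to 1.49 in control and 0.511 to 1.16 in overexpressing libraries. A count of 3 corresponded to 0.0872 to 0.455 CPM, the limit that a count of 0 allows. The gene model of Tig1 (LOC115479139) read 2.85 to 8.81 CPM in the 6 control and 151 to 514 CPM in the 12 overexpressing libraries, and HoxA13 read 77.1 to 116 CPM and 2.19 to 40.4 CPM. Marker genes of other cells moved with the groups. All 13 tested myeloid markers were called higher in overexpressing cells, and their summed level was 10.5 to 133 CPM in control and 5630 to 12900 CPM in overexpressing libraries, with the defining CSF1R at 0.291 to 4.18 CPM and 263 to 642 CPM. Of 15 tested connective tissue markers 14 were called lower, the defining PRRX1 and PDGFRA included, with a median log2 fold change of -2.01. The exception was VIM (2.51 ± 0.21, SE), which held the summed levels of this list close, at 7190 to 17700 CPM in control and 7940 to 16000 CPM in overexpressing libraries. No marker of either list was at 0 in a whole group. The part of these shifts in the differences of the members was not tested, and in bulk libraries fewer cells of a type and less RNA per cell cannot be told apart.

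Of the 21 gene models with a matching symbol that were not members, 6 had no count in any library and 4 were tested. No member lay close to the limit on libraries. The members nearest to it, EPHA1 and SEMA6B, reached 0.5 CPM in 5 libraries, and the non-members nearest to it, UNC5A and a further ROBO2 model (AMEX60DD047486), reached it in 2. Of the members, 55 met the limit in the control libraries and in the overexpressing libraries taken separately, 4 in the overexpressing libraries alone (EPHA1, SEMA7A, UNC5D and the PLXND1 model AMEX60DD023498) and 2 in the control libraries alone (EPHA10 and SEMA6B). Those 6 could pass through the group in which they are high, so the counts that follow describe the group and are no support for a shift of it. EPHA2, NTN1, PLXND1 and ROBO2 each had 2 member models, which are given by identifier. The reads were counted on gene models of AmexG_v6.0-DD, and 18 members overlapped another gene model, 17 of them one on the opposite strand. Whether the counting used strand is not stated, so reads of such pairs cannot be told apart. Without transcript lengths, levels are compared between libraries only and not between genes.

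Most guidance genes were lower in the overexpressing cells. A smaller group, mainly plexins and semaphorins of the membrane-bound class 4, was higher. Its average log2 fold changes ran from 0.77 for NRP1 to 7.06 for PLXNC1. The share of members called higher was nevertheless close to that of all genes, while the share called lower was above it. For the average of the 4 differences from control (either Tig1 form, at either time), 34 of 61 members (55.7%) were called lower, against 18.7% of all genes tested, and 13 (21.3%) were called higher, against 21.4%, by edgeR's quasi-likelihood test with a Benjamini-Hochberg adjusted p under 0.05. Either direction was called for 47 members (77.0%), against 40.1% of all genes tested and 46.7% of the 20686 genes that met the members' own limit. Of those 20686 genes, 25.1% were called higher and 21.6% lower. The median log2 fold change of the members was -1.88, against 0.05 over all genes tested. All 12 overexpressing libraries lay below every control library of their time for 20 members (6.05% of all genes) and above them for 11 members (10.9%). The 13 and the 11 include SEMA7A and the PLXND1 model AMEX60DD023498, which met the limit on levels in overexpressing libraries alone. The 34 include SEMA6B, which met it in control libraries alone. By family, the called members were 0 higher and 7 lower among the Eph receptors, 0 and 4 among the ephrins, 5 and 11 among the semaphorins, 6 and 1 among the plexins, 1 and 1 among the neuropilins, 0 and 3 among the slits, 1 and 3 among the robos, 0 and 2 among the netrins and 0 and 2 among the UNC5 receptors.

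**Figure D1:**
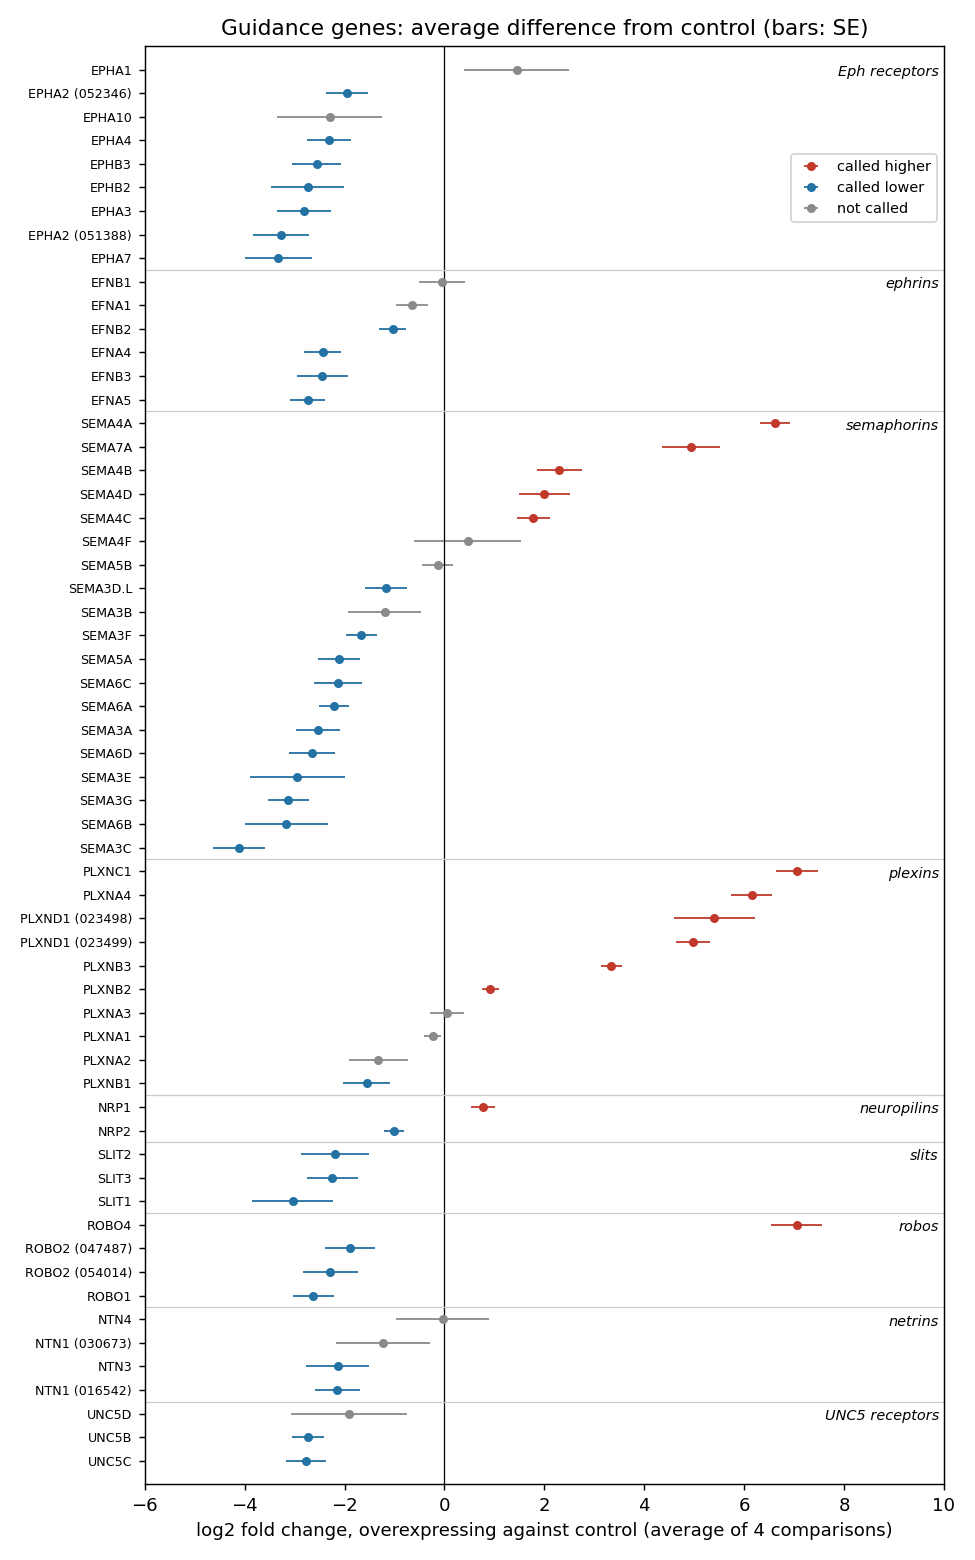
Average log2 fold change of each guidance gene in overexpressing against control cells (x axis, log2 scale, bars show the SE), grouped by family, for 60 of the 61 members. Eph receptors, ephrins, slits, netrins and UNC5 receptors hold no member called higher, and SEMA4A, PLXNC1 and ROBO4 lie at 6.62, 7.06 and 7.05. EPHA5, with no count at 3 dpe, is left out, and numbers in brackets are the last digits of identifiers. Members that met the limit on levels in control or in overexpressing libraries alone are shown for description only.

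Among the Eph receptors, EPHA3, EPHA4 and EPHB3, tyrosine kinase receptors for ephrins on adjoining cells, had the clearest falls beside EPHA2. For the average, 7 of the 10 members were called lower, against 18.7% of all genes tested. At 3 dpe alone 5 were called lower in Tig1 cells (8.47% of all genes tested) and 7 in Tig1P155A cells (11.5%). At 8 dpe 0 were called in either, against 1.29% and 1.72% of all genes called lower. When every gene with a count was tested, EPHA3, EPHA4 and EPHB3 were called at 8 dpe in both. The levels of EPHA3, a receptor that binds ephrin-A5, at 3 dpe were 94.3, 145 and 185 CPM in control, 46.2, 1.21 and 1.77 CPM in Tig1 and 17.6, 10.03 and 1.07 CPM in Tig1P155A cells. At 8 dpe the control libraries held 249, 196 and 150.1 CPM, the Tig1 libraries 40.4, 46.1 and 16.4 CPM and the Tig1P155A libraries 63.6, 62.96 and 54.9 CPM. Every overexpressing library thus lay below every control library of its time, but Tig1 replicate 1 at 3 dpe stood apart from the other 2 Tig1 libraries. The average log2 fold change of EPHA3 was -2.81 with an SE of 0.54 and an adjusted p of 0.000437.

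EPHA4, which binds ephrins of both classes, at 3 dpe read 102, 141 and 191 CPM in control, 60.6, 8.04 and 6.93 CPM in Tig1 and 25.03, 10.8 and 1.58 CPM in Tig1P155A cells. Control cells of 8 dpe had 88.4, 103 and 83.5 CPM, Tig1 cells 27.7, 36.4 and 11.7 CPM and Tig1P155A cells 40.1, 37.8 and 31.5 CPM. The groups did not overlap, Tig1 replicate 1 at 3 dpe was the highest of the overexpressing libraries, and the log2 fold change averaged over the 4 comparisons was -2.31 with an SE of 0.44 and an adjusted p of 0.000365. EPHB3, a receptor for B-type ephrins, at 3 dpe read 18.2, 31.5 and 38.3 CPM in control, 7.18, 0.152 and 2.37 CPM in Tig1 and 3.82, 4.22 and 0.153 CPM in Tig1P155A cells. The corresponding values at 8 dpe were 35.8, 42.9 and 53.4 CPM, 20.5, 7.43 and 8.33 CPM and 20.9, 9.21 and 7.03 CPM. Its groups did not overlap either, and its mean of the 4 log2 fold changes was -2.56 with an SE of 0.49 and an adjusted p of 0.00039.

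Of the EPHA2 models, AMEX60DD051388 had the smallest p among the Eph receptors. Its levels were 4.31 to 8.74 CPM (median 5.23) in control and 0 to 2.95 CPM (median 0.897) in overexpressing libraries, without overlap at either time, and its average log2 fold change was -3.27 with an SE of 0.56 and an adjusted p of 0.000122. In Tig1P155A cells at 3 dpe it had 2 counts in all, against 416 in control cells, which is a ratio of 132 (95% counting interval 36.3 to 1090; counting intervals and floors cover counting error only). This model lies on the minus strand of chromosome arm 8p from 508420732 to 508607779 and overlaps a plus-strand model with the same symbol that had no count. The second EPHA2 model, AMEX60DD052346, had 15.1 to 59.8 CPM (median 21.6) in control and 0.714 to 16 CPM (median 6.72) in overexpressing libraries (average log2 fold change -1.95 with an SE of 0.41 and an adjusted p of 0.00096).

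EPHA7, a receptor expressed at embryonic tissue boundaries, had low levels that at 3 dpe were 3.22, 3.54 and 5.04 CPM in control, 0.735, 0 and 0 CPM in Tig1 and 0, 0.04799 and 0.05102 CPM in Tig1P155A cells. Levels at 8 dpe were 4.42, 4.34 and 6.13 CPM in control, 1.99, 1.18 and 0 CPM in Tig1 and 4.59, 2.89 and 0.7299 CPM in Tig1P155A cells. At 3 dpe the groups did not overlap, while at 8 dpe Tig1P155A replicate 1 lay within the range of the controls. The log2 fold change averaged over the 4 comparisons was -3.32 with an SE of 0.68 and an adjusted p of 0.000686, and the 2 counts of Tig1P155A cells at 3 dpe, against 317 in control cells, gave a ratio of 101 (95% counting interval 27.6 to 834). EPHB2 was called lower as well (-2.74 with an SE of 0.73 and an adjusted p of 0.00581), from 1.25 to 2.19 CPM (median 1.57) in control to 0 to 2.41 CPM (median 0.128) in overexpressing libraries. EPHA1, EPHA10 and EPHA5 were not called for the average. EPHA1 read 0 to 1.21 CPM (median 0.132) in control and 0 to 5.23 CPM (median 0.206) in overexpressing libraries, and EPHA10 0.0406 to 0.818 CPM (median 0.565) and 0 to 1.67 CPM (median 0.0216). EPHA5 had no count in the 9 libraries of 3 dpe, so its fitted average is not given.

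Beside these receptors, the connective tissue marker PDGFRA read 43.3 to 369 CPM in control and 1.06 to 96.2 CPM in overexpressing libraries, and PRRX1 3.59 to 22.7 CPM and 1.18 to 9.75 CPM. Their average log2 fold changes were -3.06 ± 0.35 and -1.72 ± 0.31 (SE), and the median over the 15 tested connective tissue markers was -2.01. The values of the 7 lowered Eph receptors lay between -3.32 and -1.95. Whether the receptors fell beyond these markers was not tested.

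**Figure D2:**
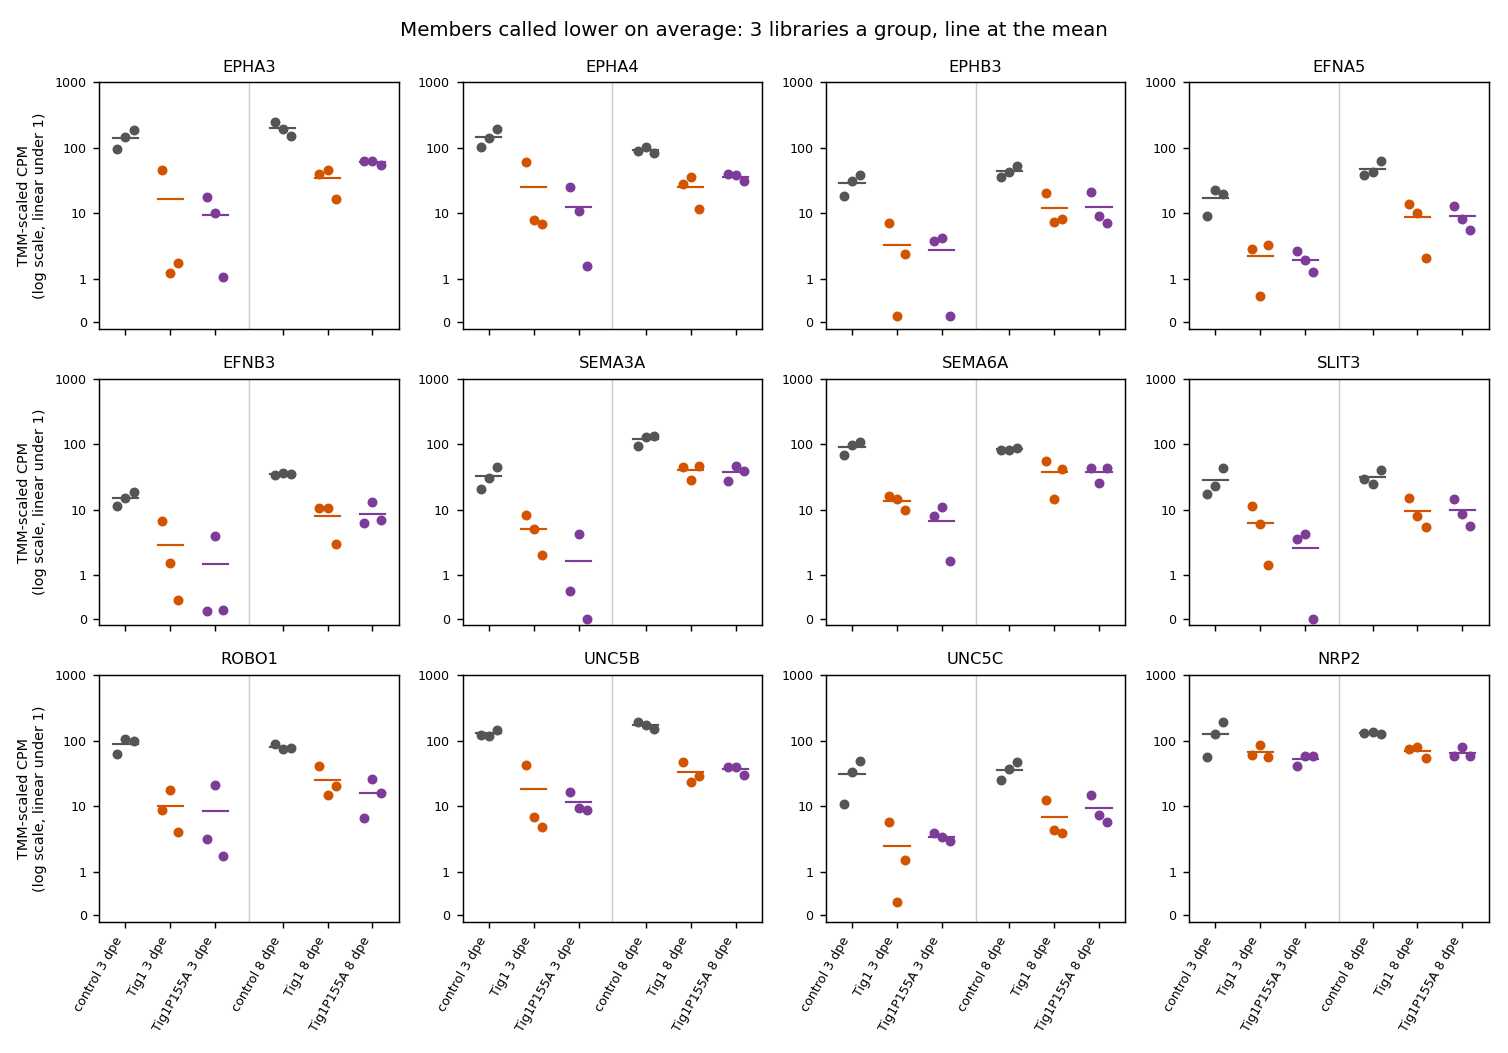
TMM-scaled CPM (y axis, log scale above 1 and linear below) of 12 members called lower on average, in the 3 libraries of each group (points, with a line at the mean). Overexpressing libraries lie below the controls of their time in every panel but NRP2, and for EPHA3, EPHA4 and UNC5B Tig1 replicate 1 at 3 dpe lies above the other Tig1 libraries of that time.

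Of the 6 ephrins, the membrane-held ligands of the Eph receptors, EFNA4, EFNA5, EFNB2 and EFNB3 were called lower and EFNA1 and EFNB1 were not called. EFNA5 was lower in each of the 4 separate comparisons. Its levels at 3 dpe were 9.22, 22.9 and 19.8 CPM in control, 2.898, 0.607 and 3.296 CPM in Tig1 and 2.64, 1.92 and 1.27 CPM in Tig1P155A cells. At 8 dpe the control libraries held 39.04, 42.6 and 63.2 CPM, the Tig1 libraries 13.8, 10.1 and 2.05 CPM and the Tig1P155A libraries 13.1, 8.21 and 5.57 CPM. No overexpressing library reached a control library of its time, and the mean of the 4 log2 fold changes was -2.74 with an SE of 0.35 and an adjusted p of 4.67e-06. Control cells had 9.22, 22.9 and 19.8 CPM at 3 and 39.04, 42.6 and 63.2 CPM at 8 dpe, a difference that was not called (log2 fold change 1.48 with an SE of 0.59 and an adjusted p of 0.436).

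EFNB3 at 3 dpe read 11.6, 14.9 and 18.7 CPM in control, 6.75, 1.52 and 0.422 CPM in Tig1 and 0.182, 3.98 and 0.204 CPM in Tig1P155A cells. Control cells of 8 dpe had 33.7, 36.9 and 34.98 CPM, Tig1 cells 10.5, 10.6 and 2.95 CPM and Tig1P155A cells 6.19, 13.1 and 6.88 CPM. The groups did not overlap, and the average log2 fold change was -2.45 with an SE of 0.51 and an adjusted p of 0.00091. EFNA4 read 9.39 to 18.2 CPM (median 14) in control and 0.364 to 9.86 CPM (median 2.28) in overexpressing libraries, with no overlap within a time (average log2 fold change -2.44 with an SE of 0.38 and an adjusted p of 4.44e-05). EFNB2, a ligand of EPHB receptors and of EPHA4, fell less (-1.04 with an SE of 0.27 and an adjusted p of 0.00529), and 9 of its 12 overexpressing libraries lay below all controls of their time. The values that were not called were -0.64 ± 0.32 (SE) for EFNA1, with an adjusted p of 0.121, and -0.05 ± 0.46 for EFNB1, with an adjusted p of 1. EFNB1 read 1.74 to 4.56 CPM (median 2.41) in control and 0.96 to 9.17 CPM (median 1.99) in overexpressing libraries.

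The semaphorins split by class for the average, for which 18.7% of all genes tested were called lower and 21.4% higher. Of the 7 members of class 3, the secreted semaphorins, 6 were called lower and none higher, although SEMA3E was not lower in all 4 comparisons. Of the 4 members of class 6, which span the membrane, all 4 were called lower, among them SEMA6B, which met the limit in control libraries alone. Of the 5 members of class 4, 4 were called higher and none lower, and of the 2 members of class 5 SEMA5A was called lower. SEMA7A, anchored to the membrane by a lipid, read higher in overexpressing libraries and is described below without a test.

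SEMA3C had the largest fall among the members called. Its levels at 3 dpe were 1.77, 2.96 and 15.7 CPM in control, 0.389, 0 and 0 CPM in Tig1 and 0, 0.09599 and 0.102 CPM in Tig1P155A cells. The corresponding values at 8 dpe were 17.03, 40.05 and 70.1 CPM, 15.9, 3.64 and 5.89 CPM and 6.54, 8.57 and 6.11 CPM. The groups did not overlap at either time, although the control libraries themselves differed widely, and the log2 fold change averaged over the 4 comparisons was -4.12 with an SE of 0.53 and an adjusted p of 4.59e-06. SEMA3G at 3 dpe read 12.1, 15.8 and 25.6 CPM in control, 4.498, 0.9103 and 0.929 CPM in Tig1 and 0, 0.4799 and 0.5102 CPM in Tig1P155A cells. Levels at 8 dpe were 29.7, 39.5 and 41.8 CPM in control, 12.4, 6.15 and 2.69 CPM in Tig1 and 21.6, 11.1 and 6.38 CPM in Tig1P155A cells. Again no overexpressing library reached a control library of its time, and the mean of the 4 log2 fold changes was -3.13 with an SE of 0.41 and an adjusted p of 6.97e-06.

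SEMA3A, which repels axons through neuropilin 1 and A-type plexins, was called lower too (-2.53 with an SE of 0.44 and an adjusted p of 0.000156), with 20.8, 30.6 and 45.1 CPM in control, 8.17, 5.01 and 2.03 CPM in Tig1 and 0.637, 4.27 and 0 CPM in Tig1P155A cells at 3 dpe. SEMA3F, which acts through neuropilin 2, had -1.66 ± 0.32 (SE), SEMA3E -2.94 ± 0.96 and SEMA3D.L -1.17 ± 0.42. SEMA3E had no count in Tig1P155A cells at 3 dpe, so the size of its average is not well bounded. At 3 dpe its mean in Tig1 cells, 2.53 CPM, lay above the control mean of 1.09 CPM through 1 library at 7.43 CPM. The calls of SEMA3D.L and SEMA3E rested on single libraries, since SEMA3D.L had an adjusted p of 0.0331 that rose to as much as 0.0904 when 1 library was left out (control 3 dpe replicate 3, control 8 dpe replicate 2 or 3, or Tig1P155A 3 dpe replicate 1), and SEMA3E was not called without control 8 dpe replicate 3. SEMA3B was not called (-1.20 with an SE of 0.73 and an adjusted p of 0.206). In class 6, SEMA6A read 67.4 to 108 CPM (median 85.8) in control and 1.63 to 55.9 CPM (median 15.6) in overexpressing libraries (-2.21 with an SE of 0.30 and an adjusted p of 8.73e-06), and SEMA6D 8.95 to 44.6 CPM (median 31.8) and 0 to 17.6 CPM (median 2.89) (-2.65 with an SE of 0.46 and an adjusted p of 0.000153). SEMA6C had -2.13 with an SE of 0.48 and an adjusted p of 0.00163. SEMA6B, which met the limit on levels in control libraries alone and is given without a test, read 0.0454 to 2.4 CPM (median 0.57) and 0 to 0.769 CPM (median 0.0263). SEMA5A had an average log2 fold change of -2.11 with an SE of 0.42 and an adjusted p of 0.000617, and SEMA5B had -0.14 with an SE of 0.31 and an adjusted p of 0.807. The SEMA5B average covers opposite directions. At 3 dpe its means were 6.6 CPM in control, 10.2 CPM in Tig1 and 11.5 CPM in Tig1P155A cells. At 8 dpe they were 40.9, 22.3 and 19.2 CPM in the same order.

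SEMA4A, a membrane semaphorin known from immune cells in mammals, had the smallest p of all members. Its levels at 3 dpe were 0.318, 0.523 and 0.813 CPM in control, 59.5, 83.3 and 91.3 CPM in Tig1 and 105, 115 and 114 CPM in Tig1P155A cells. At 8 dpe the control libraries held 2.03, 1.98 and 3.03 CPM, the Tig1 libraries 68.7, 156 and 168 CPM and the Tig1P155A libraries 124, 134 and 175 CPM. The lowest overexpressing library held far more than the highest control library, and the average log2 fold change was 6.62 with an SE of 0.30 and an adjusted p of 4.12e-11.

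SEMA7A, the ligand of plexin C1, at 3 dpe read 0.0454, 0.0291 and 0.447 CPM in control, 9.26, 11.1 and 6.68 CPM in Tig1 and 11.8, 11.4 and 11.4 CPM in Tig1P155A cells. Control cells of 8 dpe had 0.262, 0.1099 and 0.9603 CPM, Tig1 cells 3.73, 7.97 and 6.79 CPM and Tig1P155A cells 6.99, 9.68 and 9.72 CPM. All 12 overexpressing libraries lay above all 6 control libraries. Since SEMA7A met the limit on levels through the overexpressing libraries alone, its values are a description and no test is given. SEMA4B (2.30 with an SE of 0.46 and an adjusted p of 0.000538) and SEMA4C (1.78 with an SE of 0.33 and an adjusted p of 0.000312) also had all 12 overexpressing libraries above the controls of their time. SEMA4D, the ligand of plexin B1, had 10 of 12 (2.002 with an SE of 0.51 and an adjusted p of 0.00458), and SEMA4F was not called (0.46 with an SE of 1.07 and an adjusted p of 0.812).

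The plexins, the receptors of the semaphorins, were the family with the most members called higher, 6 of 10, against 21.4% of all genes tested. Among them was the PLXND1 model that met the limit on levels in overexpressing libraries alone. PLXNC1 and ROBO4 had the highest average log2 fold changes of the called members. The levels of PLXNC1 at 3 dpe were 1.64, 0.291 and 1.58 CPM in control, 95.5, 138 and 113 CPM in Tig1 and 166, 114 and 141 CPM in Tig1P155A cells. The corresponding values at 8 dpe were 1.05, 0.275 and 1.03 CPM, 74.8, 125 and 162 CPM and 172, 117 and 138 CPM. The ranges of control and overexpressing libraries were far apart at both times, and the mean of the 4 log2 fold changes was 7.06 with an SE of 0.42 and an adjusted p of 3.72e-10.

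PLXNA4, which signals with neuropilins for class 3 and alone for class 6 semaphorins, at 3 dpe read 1.82, 0.523 and 3.29 CPM in control, 129, 188 and 130.1 CPM in Tig1 and 280.2, 142 and 199.8 CPM in Tig1P155A cells. Levels at 8 dpe were 3.701, 2.69 and 1.29 CPM in control, 85.7, 130.4 and 166 CPM in Tig1 and 133, 148 and 162 CPM in Tig1P155A cells. The groups did not overlap, and the average log2 fold change was 6.15 with an SE of 0.40 and an adjusted p of 9.89e-10. PLXNB3 at 3 dpe read 6.86, 7.99 and 11.8 CPM in control, 98.9, 80.6 and 113 CPM in Tig1 and 200, 158 and 124 CPM in Tig1P155A cells. At 8 dpe the control libraries held 11.1, 10.5 and 11.4 CPM, the Tig1 libraries 51.7, 100.5 and 73.7 CPM and the Tig1P155A libraries 68.5, 85.2 and 102 CPM. In contrast to PLXNC1 and PLXNA4, control cells had clear PLXNB3 counts, and the log2 fold change averaged over the 4 comparisons was 3.34 with an SE of 0.22 and an adjusted p of 8.5e-10.

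The PLXND1 models AMEX60DD023498 and AMEX60DD023499 follow each other on the plus strand of chromosome arm 2q, from 159339615 to 159586584 and from 159596332 to 159684029, 9748 bases apart. The second held most of the reads, with 2.09 to 13.8 CPM (median 6.98) in control and 106 to 356 CPM (median 238) in overexpressing libraries (4.97 with an SE of 0.35 and an adjusted p of 2.18e-09). The first had 0 to 0.22 CPM (median 0.105) and 0.902 to 14.4 CPM (median 2.97), given without a test since it met the limit on levels through the overexpressing libraries alone. Whether the models are fragments of a single gene was not tested. PLXND1 is a receptor for SEMA3E, which was called lower for the average, and for SEMA4A.

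PLXNB2 rose less (0.91 with an SE of 0.17 and an adjusted p of 0.000262), from 25.6 to 52.9 CPM (median 41.3) in control to 55.2 to 115 CPM (median 75.5) in overexpressing libraries, and its call was lost when counts were scaled by library size alone. PLXNB1, the receptor of SEMA4D, was called lower (-1.55 with an SE of 0.47 and an adjusted p of 0.0129). PLXNA1, PLXNA2 and PLXNA3 were not called, with log2 fold changes of -0.24 ± 0.17 (SE), -1.33 ± 0.59 and 0.05 ± 0.34. The levels of PLXNA1 overlapped, with 34.7 to 121 CPM (median 80) in control and 51.9 to 96.7 CPM (median 65.6) in overexpressing libraries.

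Of the neuropilins, NRP2 was called lower and NRP1 higher. NRP2 at 3 dpe read 56.3, 125 and 193 CPM in control, 60.9, 86.3 and 56.4 CPM in Tig1 and 40.7, 57.7 and 57.9 CPM in Tig1P155A cells. Control cells of 8 dpe had 131, 134 and 128 CPM, Tig1 cells 75.2, 79.4 and 54.6 CPM and Tig1P155A cells 58.02, 80 and 58.5 CPM. The groups overlapped at 3 dpe and not at 8 dpe, and the mean of the 4 log2 fold changes was -1.01 with an SE of 0.20 and an adjusted p of 0.00062. NRP1, which is also a co-receptor for VEGF, at 3 dpe read 29.2, 63.5 and 74.5 CPM in control, 111, 156 and 101 CPM in Tig1 and 66.98, 134 and 141 CPM in Tig1P155A cells. The corresponding values at 8 dpe were 127, 89.2 and 142 CPM, 176, 189.5 and 88.3 CPM and 166, 211 and 158 CPM. The groups overlapped at both times. Its average log2 fold change was 0.77 with an SE of 0.24 and an adjusted p of 0.0148, and the call did not hold under other scalings, with 0.17 and an adjusted p of 0.752 for library size alone and 0.56 and 0.06 when mitochondrial genes were left out.

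**Figure D3:**
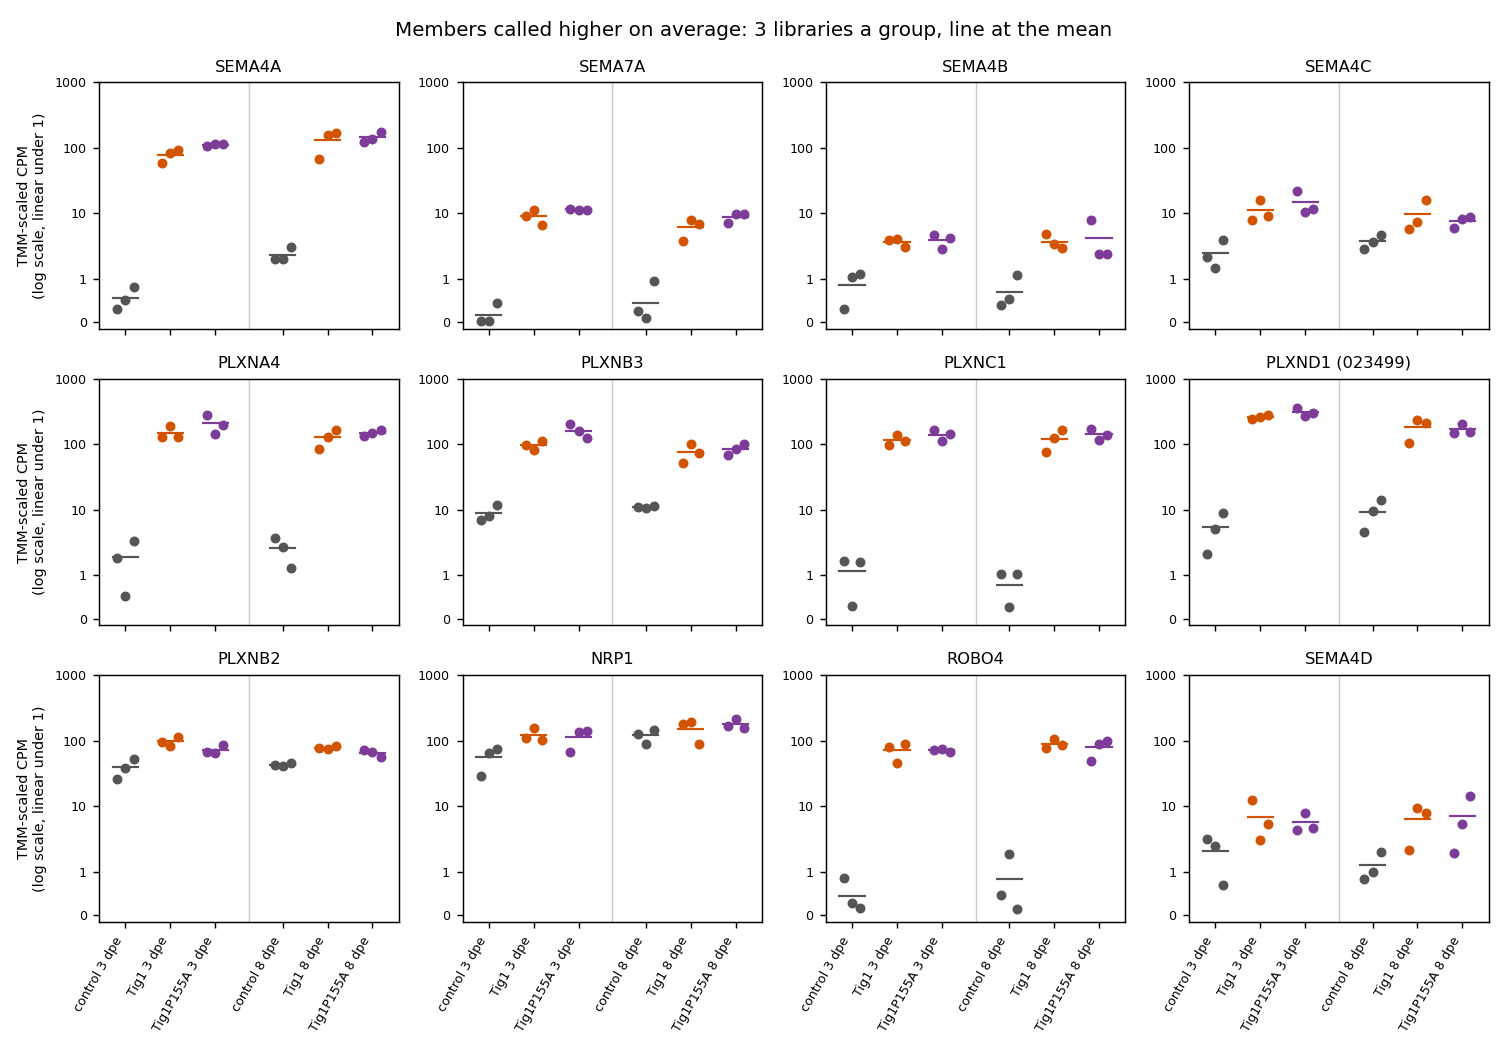
TMM-scaled CPM (y axis, log scale above 1 and linear below) of 12 members that read higher on average, in the 3 libraries of each group (points, with a line at the mean). SEMA7A is shown without a test, since it met the limit on levels through the overexpressing libraries alone. Control libraries of SEMA4A, PLXNA4, PLXNC1 and ROBO4 lie at or below 3.7 CPM and all their overexpressing libraries at or above 45.7 CPM, while the groups overlap for NRP1 and SEMA4D.

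Beside the raised semaphorins and plexins, the myeloid markers SPI1 and PTPRC read 0 to 0.366 CPM and 0 to 8.57 CPM in control libraries and 15.9 to 79.4 CPM and 191 to 391 CPM in overexpressing libraries. The median log2 fold change of the 13 myeloid markers was 7.24. Of all raised members, SEMA4A, PLXNC1, PLXNA4 and the robo ROBO4 had the highest values, 6.62, 7.06, 6.15 and 7.05. The others lay lower, among them PLXNB3 at 3.34 and NRP1 at 0.77. The part of myeloid transcripts in these rises was not tested.

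All 3 slits, secreted ligands of the robos, were called lower for the average, against 18.7% of all genes tested. In the separate comparisons 1 was called lower in Tig1P155A cells at 3 dpe (11.5% of all genes tested). In Tig1 cells at 3 dpe (8.47%) and in Tig1 (1.29%) and Tig1P155A cells (1.72%) at 8 dpe 0 were called. SLIT3 at 3 dpe read 17.5, 22.9 and 43.5 CPM in control, 11.5, 6.07 and 1.44 CPM in Tig1 and 3.55, 4.27 and 0 CPM in Tig1P155A cells. Levels at 8 dpe were 29.4, 24.3 and 40.5 CPM in control, 14.98, 8.07 and 5.38 CPM in Tig1 and 14.8, 8.73 and 5.72 CPM in Tig1P155A cells. No overexpressing library reached a control library of its time, and the log2 fold change averaged over the 4 comparisons was -2.24 with an SE of 0.51 and an adjusted p of 0.00166. SLIT1 read 15.7, 8.75 and 12.03 CPM in control cells at 3 dpe and 4.65, 3.85 and 4.88 CPM at 8 dpe, against 0 to 3.07 CPM (median 0.601) in overexpressing libraries (-3.04 with an SE of 0.81 and an adjusted p of 0.00602). SLIT2 read 2.68 to 7.96 CPM (median 4.6) in control and 0 to 4.63 CPM (median 1.03) in overexpressing libraries (-2.19 with an SE of 0.68 and an adjusted p of 0.0157).

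The robos divided. ROBO1, a receptor of all slits, at 3 dpe read 63.3, 104 and 97.5 CPM in control, 8.65, 17.8 and 4.06 CPM in Tig1 and 3.09, 20.7 and 1.74 CPM in Tig1P155A cells. At 8 dpe the control libraries held 88.9, 75.3 and 78.2 CPM, the Tig1 libraries 41.2, 14.97 and 19.98 CPM and the Tig1P155A libraries 6.65, 25.6 and 15.7 CPM. The groups did not overlap, and the mean of the 4 log2 fold changes was -2.62 with an SE of 0.41 and an adjusted p of 4.84e-05. Both ROBO2 models were called lower, AMEX60DD054014 at -2.29 with an SE of 0.55 and an adjusted p of 0.00278 and AMEX60DD047487 at -1.88 with an SE of 0.50 and an adjusted p of 0.00579, each with 11 of 12 overexpressing libraries below all controls of their time. Tig1 replicate 2 at 3 dpe, with 12.9 CPM of AMEX60DD047487, was the exception for that model.

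ROBO4, known from endothelial cells in mammals, moved the other way. Its levels at 3 dpe were 0.863, 0.291 and 0.163 CPM in control, 80.9, 45.7 and 88.5 CPM in Tig1 and 71.2, 74.3 and 67.1 CPM in Tig1P155A cells. Control cells of 8 dpe had 0.459, 1.87 and 0.148 CPM, Tig1 cells 76.9, 106 and 86.5 CPM and Tig1P155A cells 47.9, 89.2 and 98.9 CPM. Every overexpressing library lay above every control library, and the average log2 fold change was 7.05 with an SE of 0.51 and an adjusted p of 3.22e-09. ROBO4 lies on the plus strand of chromosome arm 9p from 211560381 to 212522192, and the lowered ROBO2 model AMEX60DD054014 lies on the minus strand of the same arm from 213179342 to 213674839, 657150 bases further on. Of 9 tested endothelial markers, PECAM1 and ESAM were called higher, against 21.4% of all genes tested, and 7 were not called. The defining CDH5 read 0 to 2.53 CPM in control and 0 to 23.5 CPM in overexpressing libraries (log2 fold change 0.28 ± 1.29, SE, adjusted p = 0.954), and KDR read 0 to 2.52 CPM and 0 to 2.41 CPM. The summed level of the endothelial markers was 3.59 to 49.5 CPM in control and 6.67 to 140 CPM in overexpressing libraries, and the part of endothelial transcripts in the rise of ROBO4 was not tested.

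Of the netrins, secreted ligands of DCC, neogenin and UNC5 receptors, the NTN1 model AMEX60DD016542 and NTN3 were called lower, at -2.14 with an SE of 0.45 and an adjusted p of 0.000852 and -2.14 with an SE of 0.63 and an adjusted p of 0.0113. The NTN1 model read 6.18 to 24.1 CPM (median 16.8) in control and 0.169 to 14.3 CPM (median 2.65) in overexpressing libraries, and NTN3 3.91 to 23 CPM (median 9.51) and 0 to 12.5 CPM (median 2). NTN3 had all 12 overexpressing libraries below the controls of their time and the NTN1 model 11. The second NTN1 model (AMEX60DD030673) and NTN4 were near the floor in most libraries and were not called. NTN4 had -0.04 ± 0.94 (SE), and its direction changed with the libraries used.

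UNC5B, a netrin receptor, was lower in each of the 4 separate comparisons. Its levels at 3 dpe were 123, 118 and 143 CPM in control, 42.95, 6.83 and 4.82 CPM in Tig1 and 16.6, 9.36 and 8.72 CPM in Tig1P155A cells. The corresponding values at 8 dpe were 195, 175 and 149 CPM, 47.3, 22.9 and 29.2 CPM and 40.02, 38.9 and 30.2 CPM. The control libraries stood well above all others, with Tig1 replicate 1 at 3 dpe again the highest Tig1 library of its time. The log2 fold change averaged over the 4 comparisons was -2.73 with an SE of 0.32 and an adjusted p of 1.91e-06. UNC5B lies on chromosome arm 8q and overlaps a further model with the same symbol on the opposite strand (AMEX60DD051904), which had 4 counts in all.

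UNC5C at 3 dpe read 10.6, 33.6 and 48.1 CPM in control, 5.62, 0.303 and 1.52 CPM in Tig1 and 3.91, 3.31 and 2.96 CPM in Tig1P155A cells. Levels at 8 dpe were 24.9, 36.2 and 46.4 CPM in control, 12.2, 4.38 and 3.84 CPM in Tig1 and 14.8, 7.26 and 5.69 CPM in Tig1P155A cells. Here too the groups did not overlap, and the mean of the 4 log2 fold changes was -2.77 with an SE of 0.40 and an adjusted p of 2.12e-05. UNC5D, with counts in few libraries, was not called, and it is given without a test since it met the limit on levels through overexpressing libraries alone. Tig1 replicate 3 at 8 dpe held 7.81 CPM of UNC5D, more than any other library. In Tig1P155A cells it had 1 count at 3 dpe and 0 counts at 8 dpe, against 48 and 34 counts in control cells. The control libraries held 0, 8 and 40 counts at 3 dpe and 0, 6 and 28 counts at 8 dpe. Most of these counts thus came from 1 library at each time, and the groups overlapped.

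Co-receptors and intracellular partners of these families, taken from a list of 41 genes that was drawn up with earlier results of these data known, were called in both directions. Of the 36 tested, 6 were called higher, against 21.4% of all genes tested, and 18 lower, against 18.7%. The other 12 were not called, and the median log2 fold change was -0.87. Among those called lower were ARHGEF12, the RhoGEF downstream of B-type plexins, with -2.12 ± 0.25 (SE), the netrin receptor NEO1 (neogenin) with -2.67 ± 0.32, and FLRT3, a surface protein that binds UNC5 receptors, with -2.84 ± 0.40. Among those called higher were SRGAP2, a Rac GAP of slit and robo signalling, with 2.67 ± 0.18, the guanine exchange factor VAV3 with 3.39 ± 0.28 and the kinase FES, which acts downstream of A-type plexins, with 6.62 ± 0.59. The netrin receptor DCC was called higher for the average as well (1.69 ± 0.55, adjusted p = 0.0204), at low levels, with group means from 0.369 to 2.84 CPM. Of the separate comparisons it was called in Tig1P155A cells at 3 dpe alone, and in Tig1 cells at 8 dpe its log2 fold change was 0.04. PROD1 is a salamander protein of proximal blastema cells that belongs to none of these families. At 3 dpe it read 0.232 to 4.71 CPM in control, 38.2 to 92.7 CPM in Tig1 and 35.8 to 85.5 CPM in Tig1P155A libraries. At 8 dpe it read 0 CPM in control, 2.43 to 9.9 CPM in Tig1 and 2.87 to 9.1 CPM in Tig1P155A libraries.

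In the separate comparisons, more members were called at 3 dpe than at 8 dpe. In Tig1 cells at 3 dpe 30 members were called (24.0% of all genes tested), 12 higher (15.5%) and 18 lower (8.47%). In Tig1P155A cells at 3 dpe 40 were called (26.7%), 11 higher (15.2%) and 29 lower (11.5%). At 8 dpe the calls were 14 in Tig1 cells (11.9%), 10 higher (10.6%) and 4 lower (1.29%), and 13 in Tig1P155A cells (12.4%), 10 higher (10.6%) and 3 lower (1.72%). Without control replicate 2 or Tig1 replicate 2 of 8 dpe, 9 members were called in Tig1 cells at 8 dpe and, when every gene with a count was tested, 25. The balance of directions at 8 dpe changed with the setting. For Tig1 the members called higher and lower were 9 and 16 when every gene with a count was tested, 9 and 15 when only the libraries compared were fitted, 12 and 10 with DESeq2, and 8 and 6 with scaling by library size alone. For Tig1P155A the same settings gave 9 and 23, 9 and 25, 10 and 17, and 8 and 11. Shares of all genes called under these settings were not taken, so whether the changes are particular to the members is not known. Called higher in all 4 comparisons were SEMA4A, SEMA4B, PLXNA4, PLXNB3, PLXNC1, the PLXND1 model AMEX60DD023499 and ROBO4, and called lower in all 4 were EFNA5 and UNC5B. SEMA7A and the PLXND1 model AMEX60DD023498 are left out here, since they met the limit on levels through the overexpressing libraries alone. SEMA4B lost its call in all 4 comparisons with scaling by library size alone and when every gene with a count was tested. EFNA5 and UNC5B were not called in Tig1P155A cells at 8 dpe without Tig1P155A replicate 3 of 8 dpe. UNC5B was not called in Tig1 cells at 8 dpe without Tig1 replicate 2 of 8 dpe. The 2 comparisons of a time share their control libraries. No member was called in opposite directions in any 2 of the 4, and 19 were called in none of them. These counts were not taken over all genes and describe the members alone. Among these 19 were SLIT1, SLIT2, NTN3, PLXNB1 and SEMA3D.L, which were called lower for the average alone.

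The lower count of calls at 8 dpe was not by itself a difference between the times. Tested directly, the effect of overexpression at 8 minus that at 3 dpe was called for 0 of the 61 members by edgeR's quasi-likelihood test (0.142% of all genes tested, 0.0197% called higher and 0.122% lower), for 0 by DESeq2, and for 5 when every gene with a count was tested. At an unadjusted p under 0.05 there were 13, against 2405 of 25377 genes tested. The 2 smallest of these p-values belonged to SEMA4A and SEMA6A. For SEMA4A the log2 fold change was 7.12 and 7.63 at 3 dpe and 5.80 and 5.94 at 8 dpe (difference -1.51 with an SE of 0.45 and an adjusted p of 0.239). For SEMA6A it was -2.74 and -3.75 at 3 dpe and -1.18 and -1.18 at 8 dpe (difference 2.06 with an SE of 0.63 and an adjusted p of 0.265). The median difference was 1.67 over the 10 Eph receptors and 0.66 over all members, against 0.14 over all genes tested. Both member medians include EPHA5, which had no count at 3 dpe.

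Between Tig1 and Tig1P155A cells, averaged over both times, 0 members were called by edgeR's quasi-likelihood test (0.00% of all genes tested) and 9 had an unadjusted p under 0.05, against 1756 of all genes. DESeq2 called 2, SEMA3E and the EPHA2 model AMEX60DD051388, and 5 were called when every gene with a count was tested. EPHA2 (AMEX60DD051388) read 1.69, 0.9103 and 0.0845 CPM in Tig1 and 0.182, 0 and 0 CPM in Tig1P155A cells at 3 dpe and 1.32, 2.66 and 2.95 and 0.344, 1.999 and 0.884 CPM at 8 dpe (log2 difference 2.61 with an SE of 0.75 and an adjusted p of 0.69). The Tig1 level of SEMA3E rested on few libraries, with 0.0865, 7.43 and 0.0845 CPM at 3 and 14.7, 0.394 and 3.46 CPM at 8 dpe. Over the 13 raised members the log2 difference between the forms ran from -0.45 ± 0.21 (SE, adjusted p = 0.71) for PLXNB3, which had the lower level in Tig1 cells, to 0.36 ± 0.19 (adjusted p = 0.73) for PLXNB2, which had the higher. PLXNB3 was among the 9 with an unadjusted p under 0.05.

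**Figure D4:**
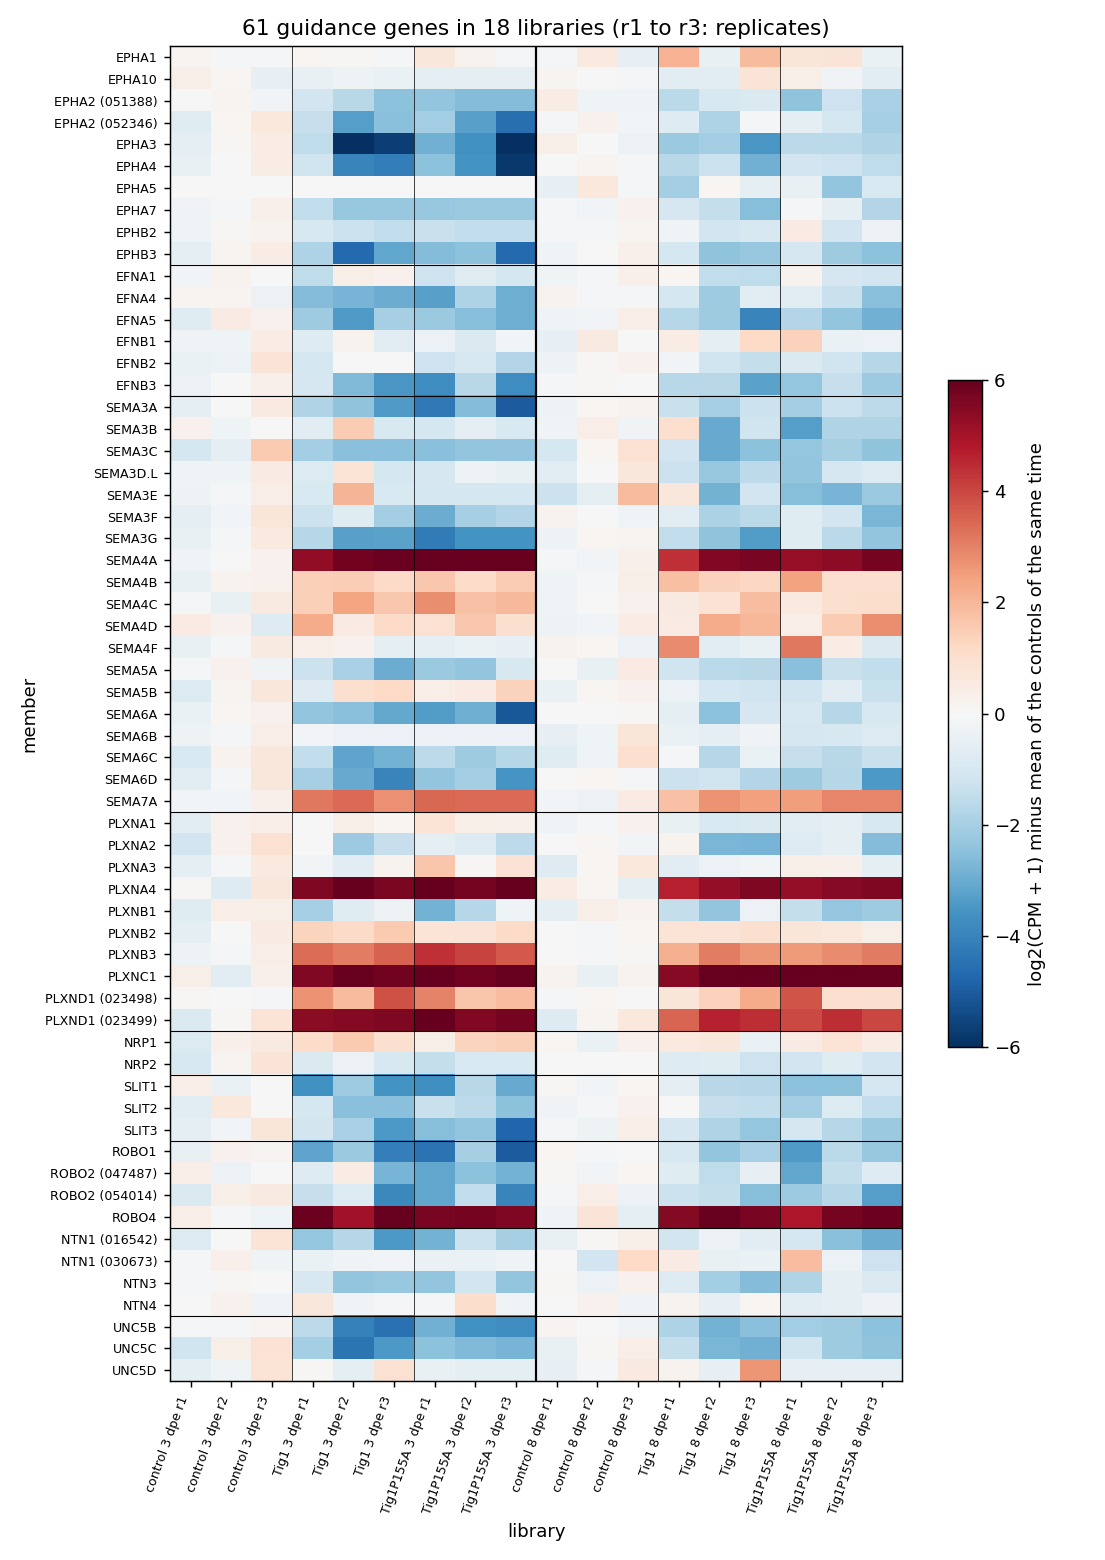
Level of the 61 members (y axis, by family) in the 18 libraries (x axis, r1 to r3 are replicates), as log2(CPM + 1) minus the mean of the 3 control libraries of the same time (colour). SEMA4A, PLXNA4, PLXNC1, PLXND1 and ROBO4 are high in all 12 overexpressing libraries, and 22 of the 34 lowered members are highest in replicate 1 among the Tig1 libraries of 3 dpe.

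The lowered members were not spread evenly over the libraries of the Tig1 groups. Over the 34 members called lower on average, Tig1 replicate 1 at 3 dpe was the highest of its 3 libraries for 22 members, and Tig1 replicate 1 at 8 dpe for 21. These counts were not taken over all genes. Outside mitochondrial genes, the Tig1 libraries held 17340094, 4469274 and 8545666 counts in replicates 1 to 3 at 3 dpe. At 8 dpe they held 10592117, 13961606 and 4581599. In the Tig1P155A groups the split was more even, with 12, 15 and 7 members highest in replicates 1, 2 and 3 at 3 dpe and 16, 11 and 7 at 8 dpe. Without Tig1 replicate 1 of 3 dpe 48 members were called for the average, and without Tig1 replicate 1 of 8 dpe 49. Leaving out the 4 libraries in which mitochondrial genes took over 50% of the counts, an alternative chosen after seeing the data, gave 48 calls, which included all 47. All 4 were overexpressing libraries, and no control library was over 50%. Of the 15 connective tissue markers, 8, 5 and 2 were highest in replicates 1, 2 and 3 of the Tig1 libraries of 3 dpe and 11, 1 and 3 in those of 8 dpe. The part of these cells in the spread was not tested.

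In control cells, the semaphorins SEMA3D.L, SEMA5B and SEMA4A and the receptor EPHA5 were called higher at 8 than at 3 dpe, and the other 16 of 19 semaphorins were not called. Of the 61 members 4 were called (0.422% of all genes tested), 4 higher (0.268%) and 0 lower (0.154%), with 12 at an unadjusted p under 0.05, against 2310 of 25377 genes tested. SEMA3D.L read 1.18, 1.19 and 2.64 CPM at 3 and 33.1, 51.2 and 84.8 CPM at 8 dpe. The difference was 5.07 with an SE of 0.80 and an adjusted p of 0.00654, and it was called under each of the 27 alternatives. SEMA5B read 2.997, 6.77 and 10.04 CPM and 30.6, 44.2 and 48.05 CPM (2.63 with an SE of 0.54 and an adjusted p of 0.0376), and SEMA4A 0.318, 0.523 and 0.813 CPM and 2.03, 1.98 and 3.03 CPM (2.07 with an SE of 0.39 and an adjusted p of 0.0209). Each of these genes had its 8 dpe libraries above its 3 dpe libraries.

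EPHA5 had no count in any library at 3 dpe and read 3.24, 8.35 and 4.47 CPM in control cells at 8 dpe, with 372 counts in all, which is at least 133-fold higher against 3 counts over the 3 dpe group (adjusted p = 0.0349). At 8 dpe it read 0.481, 5.42 and 3.202 CPM in Tig1 and 3.44, 0.158 and 2.19 CPM in Tig1P155A cells, so the groups overlapped. The calls other than that of SEMA3D.L depended on single libraries. Only SEMA3D.L was called without control 3 dpe replicate 1 or 2, control 8 dpe replicate 3, or the libraries rich in mitochondrial counts, and 2 members were called without control 8 dpe replicate 1 or 2 or Tig1P155A 8 dpe replicate 3. EPHA5 was called under 17 of the 27 alternatives, SEMA5B under 17 and SEMA4A under 21.

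SEMA3E, SEMA3A and SEMA3D.L follow each other on the minus strand of chromosome arm 12p, between 9291568 and 12511187, with SEMA3C from 4922457 to 5188790 on the same arm and strand. In control cells all 4 had higher means at 8 than at 3 dpe. SEMA3A read 20.8, 30.6 and 45.1 CPM at 3 and 93.6, 128 and 135 CPM at 8 dpe (log2 difference 1.88 with an SE of 0.76 and an adjusted p of 0.437). SEMA3C read 1.77, 2.96 and 15.7 CPM and 17.03, 40.05 and 70.1 CPM (2.64 with an SE of 0.84 and an adjusted p of 0.254). SEMA3E read 0.636, 0.959 and 1.67 CPM and 3.01, 5.49 and 35.5 CPM (3.75 with an SE of 1.49 and an adjusted p of 0.436). The libraries of the 2 times did not overlap for any of the 4 genes, but of these 4 SEMA3D.L alone was called. SEMA3B, on chromosome arm 2q, also had separate libraries, with 1.45, 0.697 and 1.097 CPM and 9.63, 15.1 and 9.42 CPM (3.39 with an SE of 1.31 and an adjusted p of 0.402). SLIT1 had the lower values at 8 dpe and was not called (-1.45 with an SE of 1.36 and an adjusted p of 0.831).

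**Figure D5:**
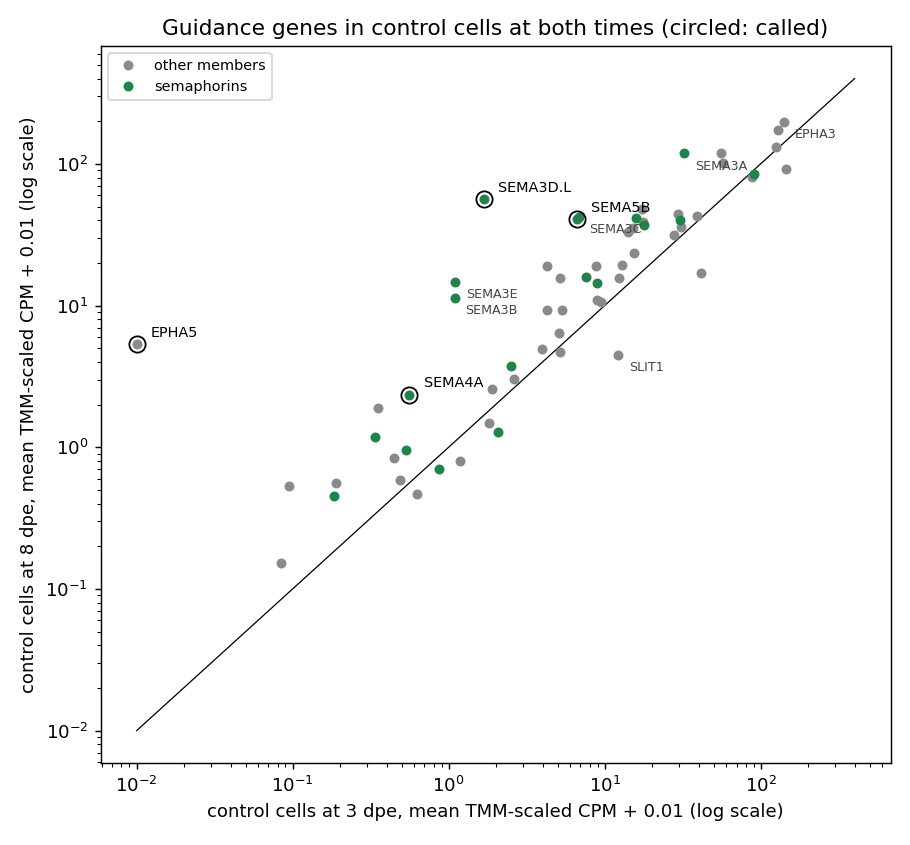
Mean TMM-scaled CPM plus 0.01 of the 61 members in control cells at 3 dpe (x axis, log scale) and at 8 dpe (y axis, log scale), with semaphorins in green and the line of equal levels. The 4 circled members, SEMA3D.L, SEMA5B, SEMA4A and EPHA5, were called higher at 8 dpe, and the points of the other class 3 semaphorins named lie on or above the line.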

How the data were processed

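Counts per gene and library were analysed as the authors deposited them, without normalization or filter. Per the authors' methods, SMARTseq2 reads were aligned with STAR 2.7.6a to AmexG_v6.0-DD, extended by curated HoxA and HoxD models, the mitochondrial genome and spike-in sequences, and uniquely mapped reads were counted with featureCounts 2.0.1 (bcl2fastq 2.19.1 before it). The strand setting of the counting is not given in the sources used here. The 92 spike-in rows held 0 counts and were dropped; 37 mitochondrial genes stayed in the fit.

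Groups came from the sample labels. In R 4.3.3, edgeR 4.0.16 (TMM factors, quasi-likelihood test, Benjamini-Hochberg adjustment over all 25377 genes that reached 0.5 CPM in 1 or more libraries) was fitted to all 18 libraries with 1 mean per group, which left 12 residual degrees of freedom. A gene was called at an adjusted p under 0.05. Levels are TMM-scaled CPM, and log2 fold changes carry their SE. Where a ratio is given for counts summed over a group of at most 3, it has an exact 95% counting interval or, at 0, a floor of 3 counts. The fit was tested on simulated data. limma 3.58.1 came with edgeR, and DESeq2 1.42.0 was an alternative. Python 3.11.15 with matplotlib 3.10.9 made the figures.

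Members, lists and tests were chosen with earlier results of these data known. Described with values are, in each family, up to 4 members with the smallest p for the average difference, members called between times or forms, EPHA7, which the study names, and for the partner list up to 3 genes in each direction. The other members, DCC, the single markers and the genes of the semaphorin cluster were named after their values were seen. Marker lists for neutrophils (2 of 2 tested genes called higher), lymphocytes (1 of 5 higher), erythroid cells (1 of 4 lower), epidermis (1 of 8 higher, 1 lower), muscle (2 of 6 lower) and Schwann cells (2 of 9 higher, 2 lower) were counted as well. Same-numbered libraries of a time had residual correlations between -0.25 and 0.2 over 18 pairs, 5 of them over 0.1, so replicate numbers were not taken as pairs.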

Additional observations from a re-analysis of the deposited data

How the results depend on the processing

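Directions and calls of the average difference from control held widely. The count of members called was 47 and lay between 32 (adjusted p under 0.001) and 50 over the other settings and between 45 and 49 with 1 library left out, and no call that was kept changed direction. Counts at 8 dpe depended more on the setting. For Tig1 against control at 8 dpe, 14 calls became 25 when every gene with at least 1 count was tested, 22 with DESeq2 and 24 when only the libraries compared were fitted, and 9 to 16 with 1 library left out. For Tig1P155A against control at 8 dpe, 13 calls became 32, 27 and 34 under the same settings, and 10 to 16 with 1 library left out. In control cells, 8 against 3 dpe, 4 calls became 2 with library size alone, 8 when every gene with at least 1 count was tested, 1 without the libraries rich in mitochondrial counts, and 1 to 4 with 1 library left out. Testing every gene with at least 1 count gave 5 calls, in place of 0, for the difference of the effect between times and 5 for the difference between the forms, and DESeq2 gave 2 for the latter. The cause of these changes was not tested, and the shares of all genes called under these settings were not taken. With the replicate number as a block, the pairing left 47 calls for the average, with SEMA3E lost and PLXNA2 gained, and 30, 39, 14 and 13 in the 4 comparisons with control. Under the block EPHA5 was no longer called between the control times.

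Single members changed direction where they had not been called. NTN4, at -0.04, became 0.22 with the replicate block, 0.29 without the libraries rich in mitochondrial counts, and -0.95 to 0.59 with 1 library left out, and SEMA5B, at -0.14, lay between -0.31 and 0.00248. NRP1 and PLXNB2 were called higher under TMM scaling and not with library size alone. Depth limited the members near the floor of 0.0872 to 0.455 CPM, such as EPHA10, SEMA6B, NTN4 and UNC5D, where a level of 0 is not detectable expression rather than absence. Libraries of 300 cells each and 3 per group bound the precision of every value.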
